A study of Homo sapiens with 15 samples.

Results

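The Period genes PER1, PER2 and PER3 were examined for chromatin occupancy by BMAL1 and HIF2α in 786O cells, an established line of clear cell renal cell carcinoma. A peak was counted as a Period peak when its summit lay in the body of one of these 3 genes or had a transcript start of one of them as the nearest start of any protein-coding gene, among 20149 such genes. By this rule 12 of the 4873 peaks in 4 lists were Period peaks, and they fell at 5 sites. Lentivirus had brought in either a control shRNA (shControl) or one that targets BMAL1 mRNA (shBMAL1), infected cells had been selected with puromycin, and the labels give the genotype as WT. CUT&RUN, a method that cuts out and sequences the chromatin fragments around an antibody through a nuclease bound to it, was run for BMAL1 and HIF2α, with IgG as a negative control. The BMAL1 list of shControl cells (1812 peaks) and the HIF2α lists of shControl cells (1204 peaks) and shBMAL1 cells (1089 peaks) each stand for a group of 3 libraries, and the BMAL1 list of shBMAL1 cells (768 peaks) for a group of 2. How the libraries of a group were combined is not given in the sources used here. The 4 IgG libraries were not analysed here. The lists hold no read counts, so the depth behind a peak is not known from them, although the study describes the libraries it kept as alike in depth and left out a BMAL1 library of shBMAL1 cells with few reads. Because each group has 1 list, no difference between lists has a replicate check. A site absent from a list may hold signal below the peak threshold. In the BMAL1 list of shBMAL1 cells, depletion and the smaller number of libraries cannot be told apart. Cells of this line represent 1 tumour only.

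The circadian clock is a feedback loop in which BMAL1, paired with CLOCK or NPAS2, binds the E-box CACGTG near the start sites of the Period and Cryptochrome genes and drives their transcription. The PER proteins accumulate, enter the nucleus with CRY proteins and inhibit BMAL1 and CLOCK, which turns their own genes off again. HIF2α is the oxygen-regulated partner of ARNT, a close relative of BMAL1. HIF2α and ARNT bind the hypoxia response element (HRE), whose core is ACGTG or GCGTG, and the complex is constitutively active in many clear cell carcinomas because the ubiquitin ligase subunit VHL is lost.

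The sequences under the summits at the start sites are shown first, since the presence and spacing of E-boxes set the 3 genes apart. They were read from GRCh37, which shares its coordinates with hg19, on the strand of the gene. Capitals mark E-boxes (CACGTG), the variant CACGTT and further HRE cores that read ACGTG or GCGTG on either strand. At PER1, 300 bases of the start site (chr17:8059825-8060124, minus strand), all upstream of the 5′ end of the gene, held 2 E-boxes. The first of them began 222 bp and the second 38 bp upstream of that end. At PER3, 300 bases upstream of the gene (chr1:7843927-7844226, plus strand) held 2 E-boxes, which began 424 bp and 370 bp upstream of its start. At PER2, 300 bases (chr2:239197476-239197775, minus strand) held neither an E-box nor an HRE core. The closest match under a PER2 peak was a single CACGTT, which contains an HRE core (ACGTG) on the other strand. This CACGTT is shown with 10 bases to each side (chr2:239197433-239197458, minus strand). It lies in the 5′ untranslated region of an alternative PER2 transcript.
PER1 start site: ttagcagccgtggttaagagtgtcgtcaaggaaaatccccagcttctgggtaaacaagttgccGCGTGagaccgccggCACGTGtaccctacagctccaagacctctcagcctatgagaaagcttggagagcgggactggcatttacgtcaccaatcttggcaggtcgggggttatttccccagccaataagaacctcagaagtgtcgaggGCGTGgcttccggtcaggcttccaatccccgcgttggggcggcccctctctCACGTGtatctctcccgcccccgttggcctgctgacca
PER3 start site: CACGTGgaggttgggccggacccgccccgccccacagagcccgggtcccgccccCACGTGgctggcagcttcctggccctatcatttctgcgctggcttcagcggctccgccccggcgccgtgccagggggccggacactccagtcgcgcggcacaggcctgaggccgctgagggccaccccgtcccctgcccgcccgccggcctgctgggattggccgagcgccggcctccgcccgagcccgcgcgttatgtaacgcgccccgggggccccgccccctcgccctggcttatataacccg
PER2 start site: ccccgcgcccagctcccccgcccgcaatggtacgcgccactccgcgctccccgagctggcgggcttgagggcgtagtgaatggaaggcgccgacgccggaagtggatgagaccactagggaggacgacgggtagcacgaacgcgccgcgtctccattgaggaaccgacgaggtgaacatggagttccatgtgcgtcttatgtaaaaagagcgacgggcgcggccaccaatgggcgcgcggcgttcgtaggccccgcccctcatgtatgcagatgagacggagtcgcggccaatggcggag
PER2 E-box variant: cgcgcgcggtCACGTTttccactatg
The E-boxes were 178 bases apart at PER1 and 48 bases apart at PER3.

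PER1 (ENSG00000179094) spans chr17:8043790-8059824 on the minus strand and has 19 annotated transcript starts. Its peaks in all 4 lists coincided at chr17:8059672-8060246, at the most upstream of these starts, 4102 bp upstream of the canonical one. The summits of the BMAL1 peaks lay 138 bp upstream of the 5′ end of the gene in shControl cells and 30 bp upstream in shBMAL1 cells. The summits of the HIF2α peaks lay 102 bp downstream of that end, in the first exon, in shControl cells and 217 bp upstream in shBMAL1 cells. This site also lies in the body of ENSG00000263620, a protein-coding locus on the same strand (chr17:8054134-8066293), so the peaks cannot be assigned to PER1 alone. A second PER1 site was called for BMAL1 in shControl cells at chr17:8057001-8057791, with its summit in an intron 1375 bp upstream of the canonical start. One more site was called for HIF2α in shControl cells at chr17:8042378-8042533, beyond the 3′ end of the gene and 3035 bp from the start of a short internal transcript. With 1 start per gene that last summit was closest to HES7, at 15050 bp, and was no longer a Period peak.

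PER2 (ENSG00000132326) spans chr2:239152685-239198743 on the minus strand. All 4 lists had a peak at chr2:239197424-239197788, whose summits lay 233 bp to 375 bp upstream of the canonical start and in an intron of the longest transcript. For the BMAL1 peak of shControl cells the nearest start of a gene of any type was that of ENSG00000283635, at 142 bp, against 159 bp for PER2. PER3 (ENSG00000049246) spans chr1:7844351-7905237 on the plus strand. It had a peak with BMAL1 in both kinds of cells at chr1:7843926-7844426, with summits 252 bp and 236 bp upstream of its start, and none with HIF2α. The map of peaks along the 3 genes shows that the sites shared between lists lay at a 5′ start in each gene and that the rest of the PER2 and PER3 bodies held no peak.

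**Figure D1:**
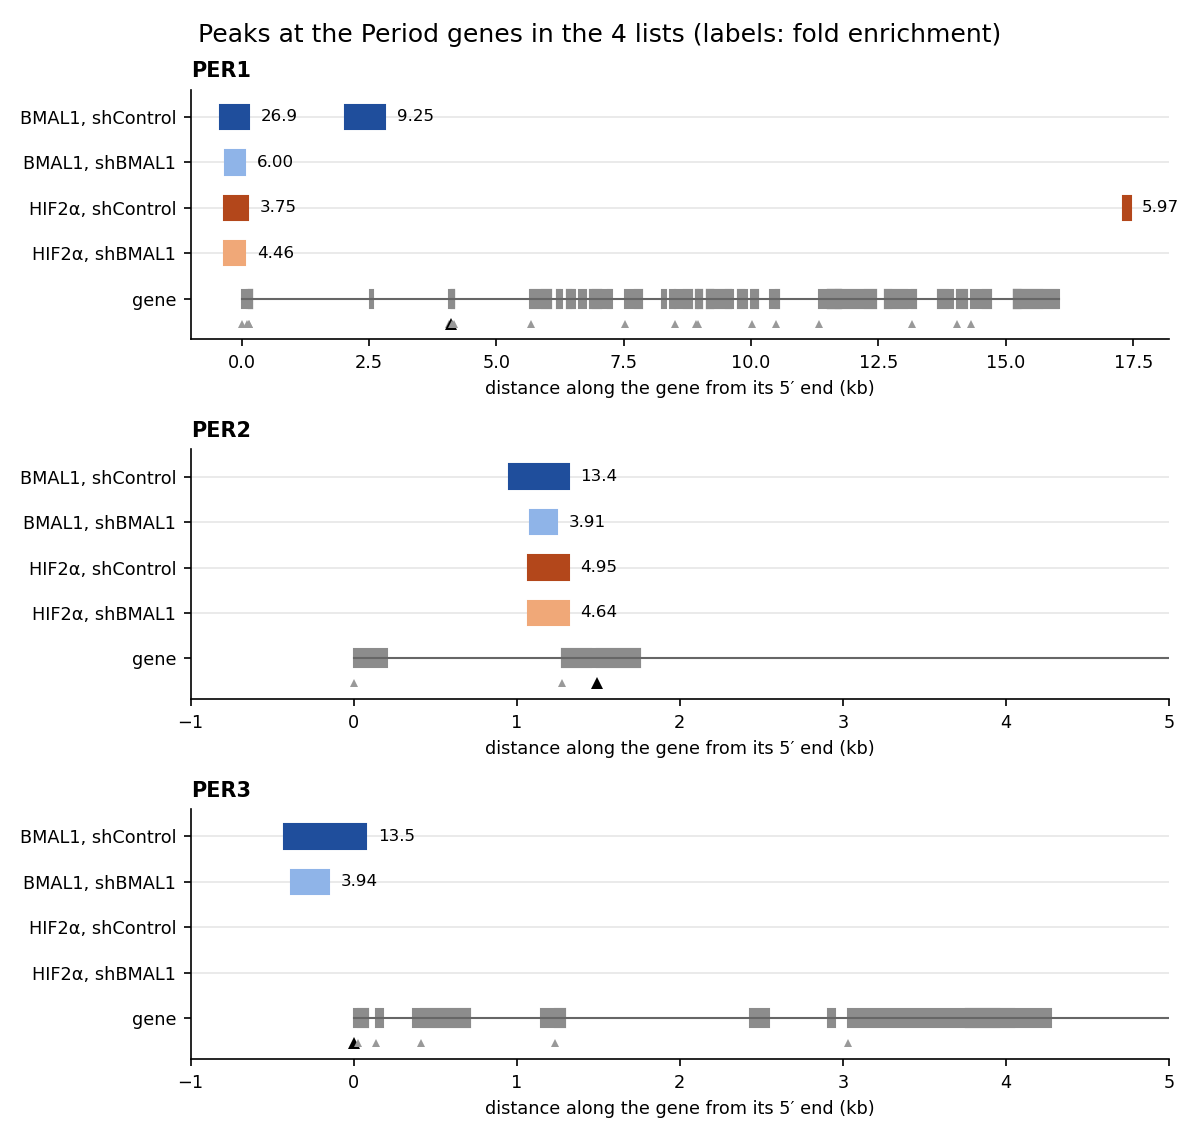
Peaks (coloured bars, labelled with their fold enrichment) of the 4 lists along PER1, PER2 and PER3, by distance from the 5′ end of the gene in kb; PER2 and PER3 are drawn over their first 5 kb, beyond which they had no peak. Grey boxes are annotated exons of any transcript, grey triangles transcript starts and the black triangle the canonical start. PER1 had 3 sites, PER2 and PER3 1 each, and the PER1 and PER2 start sites were called in all 4 lists.

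In shControl cells the BMAL1 peaks at the Period start sites were among the stronger ones of their list. Fold enrichment is the signal at the summit over the local background, and peaks were ranked by −log10 p within their list. The PER1 start site had a fold of 26.9 and ranked 89 of 1812. The PER3 start site had a fold of 13.5 and ranked 229, and the PER2 start site had a fold of 13.4 and ranked 168. The median fold of the list was 7.13, so PER1 stood highest of the 3 genes, while PER2 and PER3 differed by little and in opposite order by fold and by rank. The second PER1 site, with a fold of 9.25 and rank 632, was the weakest of the 4 Period peaks in this list. All 3 Period genes had a BMAL1 peak, beside 8.83% of protein-coding genes.

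In shBMAL1 cells the same 3 start sites were still called with the BMAL1 antibody but stood near the end of the list. The fold was 6.00 at PER1 (rank 627 of 768), 3.91 at PER2 (rank 689) and 3.94 at PER3 (rank 709), where the median fold of the list was 10.5. The second PER1 site was not called. Again all 3 genes had a peak, beside 3.94% of protein-coding genes. The −log10 p was 196 in shControl and 16.5 in shBMAL1 cells at PER1, 119 and 14.0 at PER2, and 88.1 and 13.3 at PER3. This measure also depends on the number of reads.

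**Figure D2:**
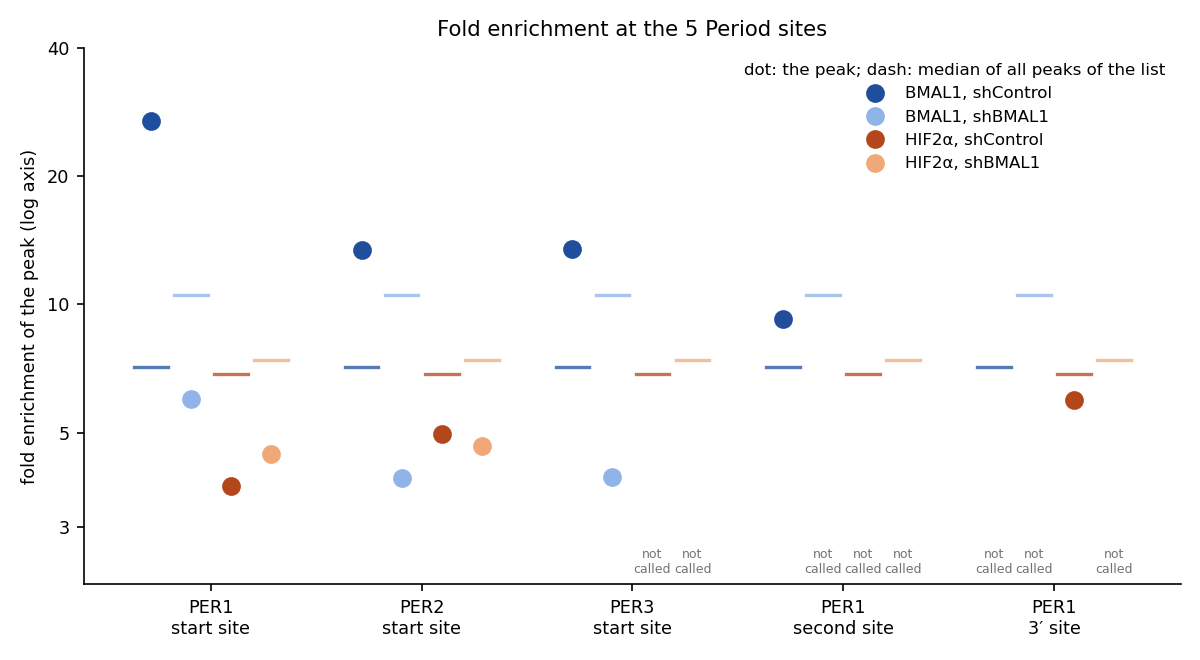
Fold enrichment (log axis) of each peak at the 5 Period sites in the 4 lists, as dots, beside the median of all peaks of the same list, as dashes; there are no error bars because each group has 1 list. The BMAL1 peaks of shControl cells lie above their list median (7.13) at 4 sites, and all other Period peaks lie below the median of their list.

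The fold, which also depends on how libraries were combined, was compared with that at every other BMAL1 site called with both shRNAs. The PER1 fold in shBMAL1 cells was 4.49 times lower than in shControl cells, a log2 ratio of -2.17. The ratios of PER3 and PER2 were both -1.78, or 3.43 times lower. Over all 701 such pairs of overlapping peaks the median log2 ratio was 0.18, with 10% of pairs below -0.63. These pairs cover 38.7% of the 1812 BMAL1 peaks of shControl cells. Sites not called in shBMAL1 cells, such as those of CIART and CRY2, have no ratio and no place in this order. Ordered by this ratio from the lowest, PER1 was number 1, PER3 number 3 and PER2 number 4 of 701. Number 2 was TEF, which encodes a PAR bZIP transcription factor under clock control, with folds of 16.2 and 3.64 and a log2 ratio of -2.15. Among the 383 pairs with a fold of at least 10 in shControl cells the median was 0.06, and the order of these 4 was unchanged. The 3 Period ratios thus lay at the low end of the distribution, on which single lists put no error.

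**Figure D3:**
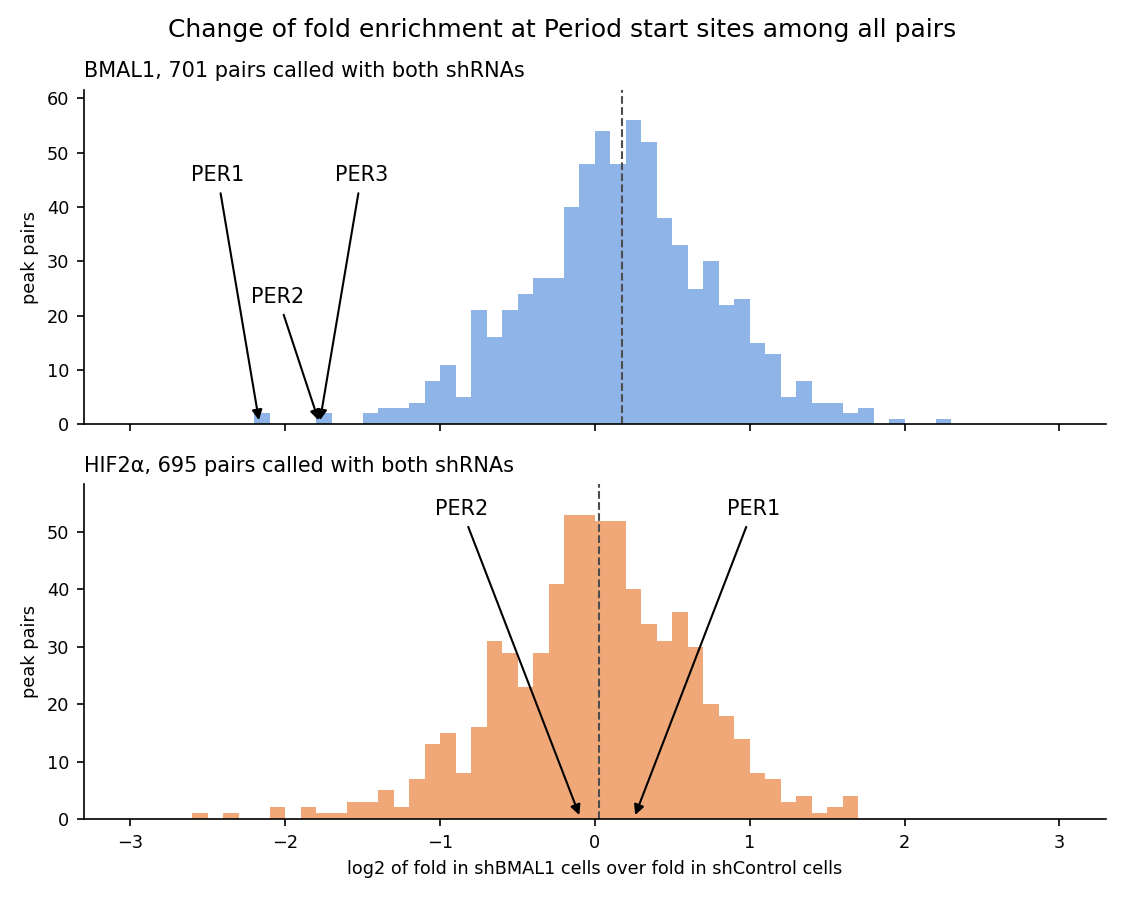
Number of peak pairs by the log2 ratio of fold enrichment in shBMAL1 over shControl cells, for BMAL1 (701 pairs) and HIF2α (695 pairs); dashed lines are the medians (0.18 and 0.03) and arrows the Period start sites. The BMAL1 ratios of PER1, PER3 and PER2 (-2.17, -1.78 and -1.78) lie in the lower tail, and the HIF2α ratios of PER2 and PER1 (-0.09 and 0.25) lie near the centre.

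HIF2α occupied the PER1 and PER2 start sites with low fold in both kinds of cells. At PER2 the fold was 4.95 in shControl cells (rank 262 of 1204) and 4.64 in shBMAL1 cells (rank 311 of 1089). At PER1 it was 3.75 (rank 1180) and 4.46 (rank 826). The median folds of the HIF2α lists were 6.87 and 7.40, above all 4 of these values. The HIF2α peak beyond the 3′ end of PER1 had a fold of 5.97 and rank 923 in shControl cells and was not called in shBMAL1 cells. HIF2α peaks were thus called at 2 of the 3 Period genes with either shRNA, beside 5.17% of protein-coding genes in shControl cells and 4.55% in shBMAL1 cells. With a −log10 p of at least 20, or with lists of equal length, only 1 gene, PER2, kept a HIF2α peak in each list. By fold in place of −log10 p the PER2 peak ranked 1017 and 986.

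At the PER1 and PER2 start sites, called for HIF2α with both shRNAs, the HIF2α fold was similar. The log2 ratio of shBMAL1 over shControl was 0.25 at PER1 and -0.09 at PER2, where the median over 695 HIF2α pairs was 0.03. Of those pairs 466 had a lower ratio than PER1 and 290 a lower ratio than PER2. Both values lay in the middle of the distribution, between its 10th and 90th percentiles of -0.76 and 0.76, while the BMAL1 fold at the same sites was 4.49 and 3.43 times lower. A site missing from either HIF2α list has no ratio. The PER1 HIF2α peak of shControl cells was near the calling limit, at rank 1180 of 1204. Its −log10 p was 9.74, where the list minimum was 8.83.

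Most Period peaks coincided with another list, by an overlap of at least 1 bp. Of the 4 BMAL1 peaks of shControl cells 3 overlapped a BMAL1 peak of shBMAL1 cells, as did 38.7% of all peaks of that list. Of the 3 HIF2α peaks of shControl cells 2 overlapped a HIF2α peak of shBMAL1 cells, beside 57.7% of all. Between antibodies in shControl cells, 2 of the 4 BMAL1 peaks overlapped a HIF2α peak (18.5% of all BMAL1 peaks) and 2 of the 3 HIF2α peaks overlapped a BMAL1 peak (27.9% of all HIF2α peaks). In shBMAL1 cells, 2 of the 3 BMAL1 peaks (12.8% of all) and both of the 2 HIF2α peaks (9% of all) overlapped one of the other antibody. When the 4 lists were merged, 59 of 3063 regions (1.93%) were called in all 4, and 2 of the 5 Period sites, the PER1 and PER2 start sites, were among them. By gene, PER1 and PER2 were among the 91 protein-coding genes (0.452%) with a peak in all 4 lists, and PER3 was not.

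Summits were closer between shRNAs for BMAL1 than between antibodies at the PER2 start site. There the BMAL1 summits lay 36 bp apart, the HIF2α summits 62 bp apart, and the BMAL1 and HIF2α summits 142 bp apart in shControl cells and 44 bp apart in shBMAL1 cells. At PER3 the BMAL1 summits lay 16 bp apart. At the PER1 start site they were spread more widely, 108 bp between the BMAL1 summits and 319 bp between the HIF2α summits. The BMAL1 and HIF2α summits at PER1 were 240 bp apart in shControl cells and 187 bp apart in shBMAL1 cells. No summit pair of the 2 antibodies in shControl cells was thus within 100 bp, although each pair of peaks overlapped.

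At the PER1 start site, where the sequence above carries 2 E-boxes, the BMAL1 summit of shControl cells lay between them, 81.5 bp from the upstream and 102.5 bp from the downstream one. In shBMAL1 cells the BMAL1 summit lay 5.5 bp from the downstream E-box and the HIF2α summit 2.5 bp from the upstream E-box. The HIF2α summit of shControl cells lay 137.5 bp from the nearest E-box and 1 bp from an HRE core in the first exon. An E-box contains an HRE core on each strand, and the whole PER1 start site held 10 HRE cores, 4 of them within its E-boxes. At the second PER1 site 1 E-box lay 38.5 bp from the BMAL1 summit, and a cAMP response element (CRE, TGACGTCA) lay 556.5 bp from it. A CRE was found in 1.27% of all BMAL1 peaks of shControl cells.

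At PER3 both E-boxes lay on the upstream side of the BMAL1 summits, 115.5 bp and 169.5 bp from that of shControl cells, and thus outside a window of 200 bp around it. The PER3 start site also held 10 GC boxes (GGGCGG), the sequence bound by SP1 and related factors. In contrast, the PER2 start site held 0 E-boxes, and its CACGTT lay 180.5 bp from the BMAL1 summit and 38.5 bp from the HIF2α summit of shControl cells. The PER2 start site held 1 HRE core, which lies within this CACGTT on the other strand. That core was 38 bp from the HIF2α summit of shControl cells. CCAAT boxes, the sequence bound by NF-Y, lay 1 bp and 2 bp from the HIF2α summits at PER2 in shControl and shBMAL1 cells. The HIF2α site beyond the 3′ end of PER1 held 0 E-boxes and 0 HRE cores.

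For comparison, windows of 200 bp around the summit held an E-box at 12.9% of BMAL1 peaks in shControl cells and 6.01% in shBMAL1 cells, at 6.81% and 6.24% of HIF2α peaks, and at 5.86% of the 5′ ends of protein-coding genes. An E-box was present in such a window at 2 of the 4 Period BMAL1 peaks of shControl cells, both of PER1, at 1 of 3 in shBMAL1 cells, and at 0 of 3 and 1 of 2 HIF2α peaks. Over the whole length of the peak, 57 of 1809 BMAL1 peaks of shControl cells with known sequence (3.15%) held at least 2 E-boxes, and the PER1 and PER3 start sites were among them. These 2 peaks were 575 and 501 bp wide, where the median of the list was 240 bp, and a wider peak can hold more motifs. HRE cores were found in 70.8% and 69.5% of the HIF2α windows and in 58.2% of the BMAL1 windows of shControl cells. The motif CACGTT was found in 5.64% and 9.80% of the BMAL1 and HIF2α windows of shControl cells, GC boxes in 61.6% and 18.4%, and CCAAT boxes in 32.1% and 24.0%. Motifs were searched on both strands, and a match is a description of the sequence.

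**Figure D4:**
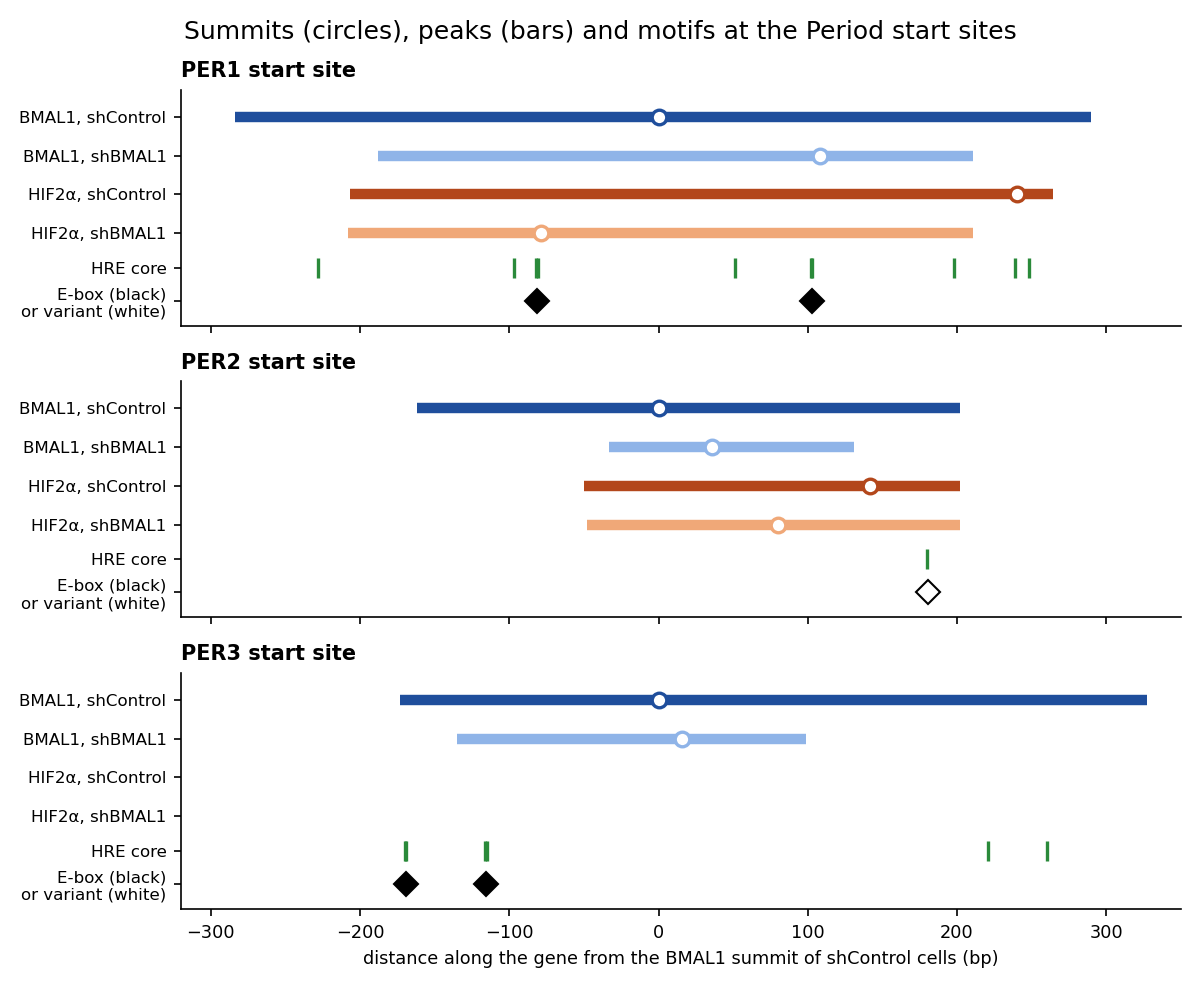
Peaks (bars), summits (circles) and motif matches at the start sites of PER1, PER2 and PER3, by distance along the gene in bp from the BMAL1 summit of shControl cells; black diamonds are E-boxes, the white diamond the variant and green ticks HRE cores on either strand. The PER1 E-boxes flank the BMAL1 summit at 81.5 bp and 102.5 bp, both PER3 E-boxes lie upstream of it, and PER2 has the variant at 180.5 bp.

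Other clock genes placed the Period peaks in context. A list of E-box outputs holds 10 other genes that BMAL1 and CLOCK are known to drive. All 10 had a BMAL1 peak in shControl cells, beside 8.83% of protein-coding genes. Over all the clock lists 12 genes outside the Period family had such a peak, with no limit on distance. This number was 10 with a limit of 10 kb and 8 with lists of equal length. It was 9 with starts of genes of every type, and also 9 with a −log10 p of at least 20. Ordered by rank in the BMAL1 list of shControl cells, 15 clock genes had a peak, and PER1 took place 1, PER2 place 4 and PER3 place 6. TEF took place 2 with rank 140, the nuclear receptor gene NR1D1 place 3 with rank 160 and a fold of 13.3, and CIART, which encodes a repressor of BMAL1 and CLOCK, place 5 with rank 209 and a fold of 17.0. The cryptochrome genes CRY2 (fold 11.8, rank 298) and CRY1 (fold 11.0, rank 337), whose products act with PER proteins, followed PER3 directly. Further down were NR1D2 (rank 443), DBP (666), HLF (996), BHLHE40 (1477) and BHLHE41 (1740). The Period genes thus held 3 of the first 6 places among these clock genes.

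Few of the E-box outputs had a BMAL1 peak in shBMAL1 cells. Of the 10 genes 2 had one, TEF and NR1D1, whose folds were 3.64 and 8.49, as had 3 of 3 Period genes, beside 3.94% of protein-coding genes. All of these calls were weak. PER1 led them at rank 627 with a −log10 p of 16.5, and NR1D1 and TEF ranked 628 and 753, so with a −log10 p of at least 20 there were 0 Period genes and neither of the other two. For HIF2α, 1 of the 10 had a peak in shControl cells, beside 5.17% of protein-coding genes. It was BHLHE40, a hypoxia-induced repressor, whose best of 6 peaks had a fold of 11.3 and rank 94. In shBMAL1 cells 2 had one, beside 4.55% of protein-coding genes. These were BHLHE40, whose best of 4 peaks had a fold of 13.9, and TEF, with a fold of 8.78. The best BHLHE40 peaks of the 2 HIF2α lists lay at different sites. The TEF HIF2α peak (chr22:41800091-41800238) did not overlap the BMAL1 peaks of TEF, of which that of shControl cells lay at chr22:41777035-41778402. Of the activators and nuclear receptor genes of the loop, BMAL1 itself, CLOCK, NPAS2, RORA and RORB had no BMAL1 peak with either shRNA. RORB had a HIF2α peak in shBMAL1 cells (fold 7.28) at chr9:76486656-76486801, and assignment set no limit on distance. Of the clock genes outside the Period family, 4 had a HIF2α peak in these cells, and 2 with a limit of 10 kb. Among genes for kinases and ubiquitin ligase subunits that act on PER protein, BTRC and CSNK1D had BMAL1 peaks in shControl cells. Their folds were low (4.33 and 4.15), and they ranked 452 and 1383 of 1812. BTRC also had a HIF2α peak in shBMAL1 cells that overlapped its BMAL1 peak (fold 4.78, rank 209 of 1089). No E-box output had a peak in all 4 lists.

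Genes most like each Period gene were named among those with a peak in exactly the same lists. The measure was the Euclidean distance between the log10 of rank over list length, with the best-ranked peak of a gene in each list. PER1 thus entered the HIF2α list of shControl cells with the site beyond its 3′ end (rank 923). Apart from ENSG00000263620, which shares its other peaks, PER1 was closest to CDV3 (distance 0.582) and LMF1 (0.606) among 90 genes. PER2 was closest to TSN (0.511), AUTS2 (0.515) and TRIO (0.563) among 90 genes. PER3 was closest to MARK4 and TRAPPC6A, which were assigned the same peak (0.0739), and to AP5S1 (0.129) among 586 genes. At that peak of MARK4 and TRAPPC6A the BMAL1 fold was 11.5 in shControl and 4.84 in shBMAL1 cells, and at AP5S1 it was 20.2 and 9.99.

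Apart from ENSG00000263620, which overlaps PER1 and holds 2, 1, 1 and 1 of its peaks in the 4 lists, few genes nearby had a peak. None of the nearest protein-coding neighbours of PER1 (HES7 and VAMP2), PER2 (HES6 and TRAF3IP1) or, on the upstream side, PER3 (VAMP3) had a peak in any of the 4 lists, and neither had UTS2, which overlaps the 3′ end of PER3. TNFRSF9, on the downstream side of PER3, was assigned a HIF2α peak in shControl cells at chr1:7959955-7960165, 54.8 kb from PER3, with a fold of 12.6 and rank 214. The only other peak within 100 kb of a Period gene was a BMAL1 peak of shControl cells assigned to BORCS6 (chr17:8093552-8093715, fold 3.57), 33.8 kb from PER1.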

How the data were processed

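The members and gene lists were chosen with earlier results of these data known. Per their methods, the authors mapped read pairs on hg19 (Bowtie2 2.5.3), removed duplicates with SAMtools 1.6 and sambamba, called peaks with MACS2 2.2.9.1 (maximum gap 400 bp) and removed blacklisted regions with bedtools 2.31.1. They deposited 1 list per group, named in the labels of all its libraries. How libraries were combined, on which fold and −log10 p depend, is not given in the sources used here. Whether IgG served as control is not given in the sources used here. The yeast spike-in was applied to signal tracks, not to these lists. The fold of each peak was deposited as a ratio over local background. Each peak also has a deposited −log10 p and −log10 q, and a −log10 p depends on depth, which the lists do not hold. The labels name the libraries biological replicates, whereas the reporting form of the study calls them technical, and neither spread can be given.

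Summits were assigned with GENCODE release 44 on GRCh37 to the gene whose body held them and to the nearest of 146580 transcript starts of protein-coding genes. Named genes were the Period genes, the clock lists, neighbours, genes overlapping a summit and the 3 most similar genes per Period gene. Overlap was at least 1 bp. Pairs of overlapping peaks gave the log2 ratios, and motifs were counted in 200 bp around the summit. Since each group has 1 list, no test was run. Some clock genes and a sequence are not reported here. Python 3.11.15, numpy 2.4.6 and matplotlib 3.10.9 were used, and assignment, overlap and motif search were tested on simulated data. Alternatives were peak midpoints, −log10 p of at least 20, lists of equal length (768 peaks), genes of every type, a distance limit of 10 kb, other overlap rules, rank by fold and other motif windows. A setting with 1 start per gene was added after seeing the data.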

Additional observations from a re-analysis of the deposited data

Results flagged for a closer look

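At the PER1 start site the fold with the 2 antibodies moved in opposite directions between shControl and shBMAL1 cells, and this was picked out for that reason. The BMAL1 fold was 26.9 and 6.00 and the HIF2α fold 3.75 and 4.46, so the log2 ratio for HIF2α exceeded that for BMAL1 by 2.42. The difference was not tested, since each group has 1 list. The HIF2α change was small, a log2 ratio of 0.25, and 466 of 695 HIF2α pairs had a lower ratio. The HIF2α peak of shControl cells ranked 1180 of 1204. Its −log10 p was 9.74, where the list minimum was 8.83. The HIF2α summits of shControl and shBMAL1 cells lay 319 bp apart.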

How the results depend on the processing

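Of 126 alternative values for 34 results, 88 stayed within 1.5 times the reported count or rank and 38 moved beyond it. With only peaks of −log10 p of at least 20, the BMAL1 list of shBMAL1 cells held 0 Period peaks at 0 Period genes and 1 of the other clock genes (3 without this limit), each HIF2α list held 1 Period peak at 1 gene, and coincidences numbered 0 in all comparisons with the BMAL1 list of shBMAL1 cells and 1 in the others. With lists of equal length, each HIF2α list held 1 Period peak at 1 gene, and coincidences that involve HIF2α numbered 1. With summits at most 100 bp apart, coincidences between antibodies numbered 0 in shControl cells and 1 in shBMAL1 cells, and between HIF2α lists 1. Period peaks with an E-box numbered 1 for BMAL1 in shControl cells within 100 bp, and with 400 bp or the whole peak 2 for BMAL1 in shBMAL1 cells and 1 for HIF2α in shControl cells. With nearest starts within 10 kb, 2 of the other clock genes had a HIF2α peak in shBMAL1 cells, and with 1 start per gene, chosen after seeing the data, 2 had one in shControl cells. Ranked by fold, the PER1 start site moved to 42 in the BMAL1 list of shControl cells, and the PER2 start site to 284 there and to 1017 and 986 in the HIF2α lists of shControl and shBMAL1 cells. In these 4 of 12 ranks the change exceeded 1.5 times, and its cause was not tested. No paired analysis was possible because each group is 1 list without replicate numbers, and for the same reason leaving out single libraries was not run.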

Other observations

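The BMAL1 peaks with a fold of at least 10 in shControl cells numbered 485, and 383 of them (79.0%) were also called in shBMAL1 cells. Of the 74 with an E-box in the peak 47 (63.5%) were called in both, with a median log2 ratio of -0.20 and 7 below -1. Of the 409 without an E-box 334 (81.7%) were called in both, with a median of 0.09 and 14 below -1. The PER1 and PER3 start sites belong to the first of these sets and the PER2 start site to the second, where its log2 ratio of -1.78 was the lowest. After PER1, TEF, PER3 and PER2, the lowest ratios of all BMAL1 pairs were those at ZBTB24 (folds of 17.2 and 6.35, log2 ratio -1.44) and MAMSTR (13.8 and 5.12, log2 ratio -1.43), which were named after their values were seen. The share of GC in the 200 bp around the BMAL1 summit of shControl cells was 60% at the PER1, 63% at the PER2 and 77.5% at the PER3 start site, beside a median of 65.5% over the list.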
